A study of Mus musculus with 6 samples.

Results

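Glycosaminoglycans are long sugar chains that are built in the Golgi apparatus on proteoglycan core proteins, or, for hyaluronan, at the cell surface with no core protein. The 46 genes described here encode the enzymes and transporters that make and sulfate these chains, together with the extracellular sulfatases that trim them. They were chosen by symbol as the enzymes of the linker, of chondroitin, dermatan and heparan sulfate, of sulfate and sugar supply, and of hyaluronan. All 46 were found among the 24346 gene symbols of the deposited data. For the account they were grouped by role into 8 classes.

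Sulfated chondroitin chains on aggrecan give cartilage its fixed negative charge and its water content, and heparan sulfate chains bind and spread growth factors and hedgehog proteins between cells. Each chain starts from a short linker on a serine of the core protein. Polymerases then extend it with alternating sugars, and sulfotransferases add sulfate from the donor PAPS at set positions. Cartilage makes large amounts of sulfated chains, and inherited defects of several of these genes cause skeletal dysplasias.

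Messenger RNA was sequenced from the nasomaxillary complex (bone, cartilage and soft tissue of nose and upper jaw) of mouse embryos at E17.5. The 3 control libraries are labelled Pth1r f/f (Flox control), and the 3 mutant libraries Wnt1-Cre:Pth1r f/f (Mutant), with no treatment in either group. Both groups thus carry floxed Pth1r, the gene of the receptor for parathyroid hormone and its related protein, and only the mutants carry Wnt1-Cre, which is active in the neural crest, so an effect of the transgene and of the recombined receptor gene cannot be told apart. Whether libraries came from separate embryos is not given in the labels, and p-values therefore measure only the spread between these samples.

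Library totals ran from 514693 to 546322 FPKM (fragments scaled by transcript length and library size). The spacing of low values put relative depth between 0.903 and 1.11 in 5 libraries and at 0.671 in mutant replicate 3. Pth1r itself measured 75.2, 55.2 and 73.5 FPKM in control and 77.3, 78.4 and 69.7 FPKM in mutant. The groups overlapped, with a mutant mean 1.10 times the control mean, so its mean was not lower in the libraries labelled mutant. The position of the floxed segment is not in the labels, and reads from outside it check nothing. All 3 control libraries read as female from Xist and Y-linked genes, against 1 female and 2 male mutant libraries. The cartilage markers, all 15 of which were detected, summed to between 1928 and 2349 FPKM in control and between 632 and 1041 FPKM in mutant. All 15 were lower in mutant, and 8 passed the test described next, a count that became 1 when control replicate 1, 2 or 3 or mutant replicate 1 was left out, 5 without mutant replicate 2 and 12 when mutant replicate 3 was dropped. The count was also 1 with sex or with muscle markers as a covariate, 3 with no filter, 3 without the trend and 4 with robust eBayes, and the 15 lay below the controls in every mutant library. Of the other marker lists, limma called 0 genes in each. All 12 skeletal muscle, all 10 leukocyte and all 4 adipocyte markers tested measured higher in mutant, as did 7 of 8 endothelial and 3 of 4 erythroid markers, while 9 of 10 osteoblast and 5 of 8 neuron markers measured lower. In bulk tissue, fewer cells of a type cannot be told apart from less RNA per cell.

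Mutant was compared with control on log2(FPKM + 1) with limma over the 14766 genes whose mean was at least 1 FPKM, and p-values were adjusted over all of them by the Benjamini-Hochberg method. Of the 46 glycosaminoglycan genes 44 passed this filter, and Has1 and Ndst4 did not. At an adjusted p under 0.05 limma called 0 of the 44, where 0.264% of all tested genes were called. At an unadjusted p under 0.05 there were 6 lower members, 13.6% of the 44, against 5.96% of all tested genes, and 4 higher members, 9.09% of the 44, against 5.35%. Their total of 10 became 4 with sex as a covariate and 6 without control replicate 3. It became 12 without control replicate 2, and 13 without mutant replicate 3 or without the trend. With no filter it was 13 of the 46. The mutant values lay entirely below the control values in 10 members (22.7%, against 9.16% of all tested genes) and entirely above them in 7 (15.9%, against 7.85%). The median log2 change of the 44 was -0.02, beside -0.0020 for all tested genes, and 31 had a change smaller than 0.2 in either direction. The 95% interval of the change lay within 1.5-fold in either direction for 36 of the 44, on a scale that understates changes of genes at a few FPKM. Summed over all 46 genes, the level was 788, 759 and 794 FPKM in control and 761, 767 and 737 FPKM in mutant, so the groups overlapped.

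**Figure D1:**
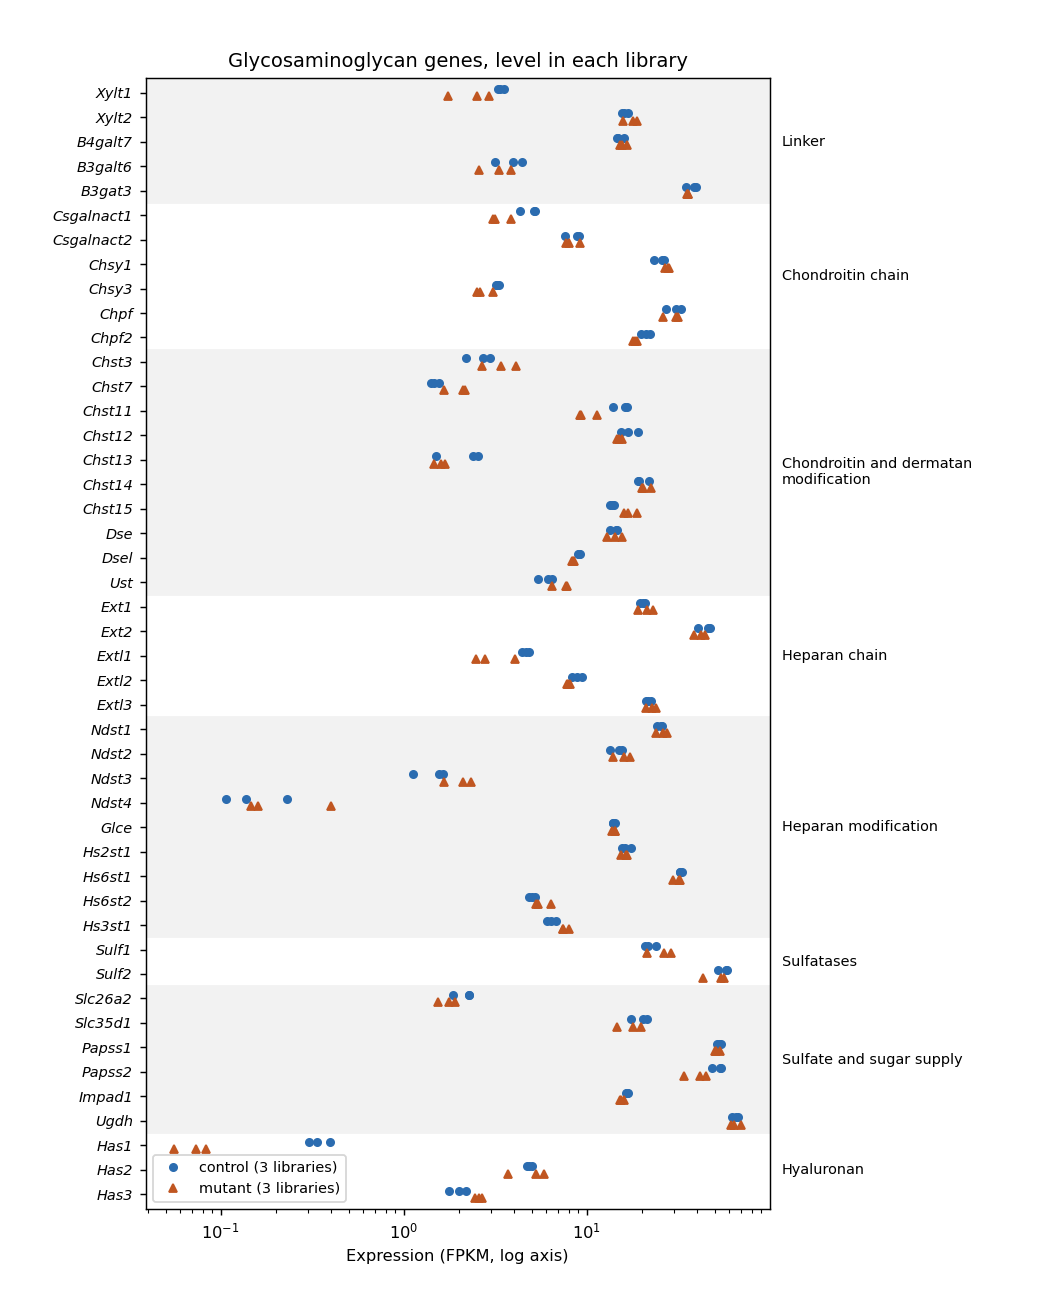
FPKM of the 46 glycosaminoglycan genes in each library, on a log axis, grouped by role; circles are the 3 control and triangles the 3 mutant libraries. Most genes overlap between the groups. Of the 44 tested genes 10 lie lower in all mutant libraries, among them Chst11, Csgalnact1, Extl1 and Papss2, and 7 lie higher, among them Chst15. Has1, which was not tested, lies lower too.

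The sequences just upstream of 3 members are shown because their RNA levels are described most closely below. They are Chst11, which had the smallest p of the 44, Papss2, the sulfate donor gene with non-overlapping groups, and Has1, the member with the largest ratio between groups. Each run holds the 250 bases before a RefSeq transcript start (GRCm38.p6), read 5′ to 3′ on the strand of the gene. Capitals mark the SOX core AACAAT or its reverse complement, the letters read by SOX9 and its relatives in cartilage, and the cyclic AMP response element TGACGTCA, which is its own reverse complement and is read by factors that act after the parathyroid hormone receptor. Both motifs were searched on both strands, and the marked matches do not overlap each other. The motifs were chosen after the values were seen. For Papss2 only the window with a match is printed, and the window of its first start, without a match, is left out.

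Chst11 (chr10:82985247-82985496, plus strand): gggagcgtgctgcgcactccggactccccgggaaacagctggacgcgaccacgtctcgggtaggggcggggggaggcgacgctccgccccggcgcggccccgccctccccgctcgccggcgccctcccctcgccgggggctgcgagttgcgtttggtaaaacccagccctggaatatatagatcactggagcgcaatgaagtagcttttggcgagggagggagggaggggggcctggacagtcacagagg
Papss2, second start (chr19:32619755-32620004, plus strand): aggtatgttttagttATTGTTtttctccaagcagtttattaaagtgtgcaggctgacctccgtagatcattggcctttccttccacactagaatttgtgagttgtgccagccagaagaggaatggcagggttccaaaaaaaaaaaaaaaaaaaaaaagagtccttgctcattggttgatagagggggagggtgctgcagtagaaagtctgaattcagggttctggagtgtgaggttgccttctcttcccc
Has1 (chr17:17855189-17855438, minus strand): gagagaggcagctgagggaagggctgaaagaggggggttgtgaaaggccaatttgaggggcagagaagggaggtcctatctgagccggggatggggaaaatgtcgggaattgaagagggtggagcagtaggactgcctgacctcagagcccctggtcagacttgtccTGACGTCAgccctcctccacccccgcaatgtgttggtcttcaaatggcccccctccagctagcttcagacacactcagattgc

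The window of the second Papss2 start holds 1 SOX core, 235 bases before the start, and the Has1 window holds 1 cyclic AMP response element, 83 bases before the start. The Chst11 window and the window of the first Papss2 start hold neither. RefSeq windows matched 34 of the 46 members, in 43 windows. The SOX core was found in 2 of these, those of Papss2 and Extl2, beside 9.42% of all 32851 windows. The cyclic AMP element was also found in 2, those of Has1 and Chpf, beside 1.55% of all windows. The RNA of Chpf overlapped between the groups, as given below. A match describes letters only, and the FPKM of a gene does not separate its starts.

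The linker is built by Xylt1 and Xylt2, the xylosyltransferases that start chains on core proteins, B4galt7 and B3galt6, which add galactose, and B3gat3, which adds the closing glucuronic acid. Xylt1 (chromosome 7, 117380979 to 117673580, plus strand, GRCm38) measured 3.29, 3.36 and 3.53 FPKM in control and 2.52, 2.91 and 1.75 FPKM in mutant. Every mutant library lay below every control library. The log2 change of Xylt1 was -0.39 ± 0.14 (SE; limma adjusted p = 0.365), and -0.24 without mutant replicate 3. Its paralog Xylt2 stood higher on the same per-length scale, at 16.1 ± 0.632 FPKM in control and 17.4 ± 1.5 FPKM in mutant (SD, n = 3), with overlapping groups. B3gat3 was the most abundant linker gene, at 39.5, 35 and 38.4 FPKM in control and 35.4, 35.9 and 35.6 FPKM in mutant, and its groups overlapped too (log2 change -0.08 ± 0.055 SE, limma adjusted p = 0.668). The means of B4galt7 were 15.2 and 15.7 FPKM, and those of B3galt6 3.85 and 3.25 FPKM, in control and mutant. Xylt1 was the only one of the 5 linker genes with separate groups, where 9.16% of all tested genes were lower without overlap, and the summed level of the class was 76.2 ± 2.24 FPKM in control and 74.5 ± 2.91 FPKM in mutant.

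Chondroitin chains are begun by the N-acetylgalactosaminyltransferases Csgalnact1 and Csgalnact2 and extended by Chsy1, Chsy3 and the polymerizing factors Chpf and Chpf2. Csgalnact1 (chromosome 8, 68356781 to 68735146, minus strand), the initiating enzyme best known from cartilage, measured 4.32, 5.17 and 5.19 FPKM in control and 3.15, 3.83 and 3.08 FPKM in mutant. The groups were separate, the mutant mean was 0.685 times the control mean, and the change on the log2 scale was -0.44 ± 0.10 (SE; limma adjusted p = 0.217). Csgalnact2, its paralog, measured 8.49 ± 0.738 and 8.27 ± 0.769 FPKM in control and mutant (SD, n = 3), with overlapping groups.

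Among the extending enzymes the pattern was mixed. Chpf2 measured 21.1, 19.9 and 22.2 FPKM in control and 18.4, 18.9 and 17.8 FPKM in mutant, which are separate groups with a log2 change of -0.19 ± 0.057 (SE; limma adjusted p = 0.307). Its exons overlap those of Smarcd3 on the other strand, and the strand setting of the counting is not given. Chsy3 was lower in all mutant libraries (means of 3.25 and 2.73 FPKM), while the polymerase gene Chsy1 was higher in all of them (25.2 ± 1.63 and 27.5 ± 0.660 FPKM; SD, n = 3). Chpf, the most abundant gene of the class, measured 32.5, 27.2 and 30.6 FPKM in control and 30.9, 31.6 and 26.1 FPKM in mutant. Its groups overlapped, and the interval of its log2 change ran from -0.25 to 0.19. Of the 6 genes 3 were lower and 1 was higher without overlap (9.16% and 7.85% of all tested genes), none of them called. The summed level of the class was 93.0 ± 5.69 FPKM in control and 89.7 ± 4.35 FPKM in mutant.

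The enzymes that sulfate and epimerize chondroitin and dermatan chains held the member with the smallest p. Chst11 (chromosome 10, 82985498 to 83195900, plus strand) encodes chondroitin 4-O-sulfotransferase 1, which is needed for 4-sulfated chondroitin in growth plate cartilage. It measured 16.3, 13.8 and 16.5 FPKM in control and 9.21, 9.34 and 11.4 FPKM in mutant. The lowest control library stood above the highest mutant library, which was mutant replicate 3. That library also had the highest cartilage marker sum of the 3 mutants (1041 FPKM, against 704 and 632), and the part of cartilage content in the Chst11 value was not tested. The mutant mean was 0.643 times the control mean, and the log2 change was -0.59 ± 0.10 (SE; unadjusted p = 0.000559, limma adjusted p = 0.102). Limma with library weights gave an adjusted p of 0.0420, and sex as a covariate gave a change of -0.69 with an adjusted p of 0.539. For scale, the cartilage collagen gene Col2a1 measured 702 ± 88.3 and 182.5 ± 67.5 FPKM in control and mutant. Chst11 therefore amounted to 2.22 ± 0.0952% of the Col2a1 value in control and 5.80 ± 1.36% in mutant (SD, n = 3), a ratio taken after the values were seen, with an exact two-sided permutation p of 0.10, the smallest that 3 against 3 can give. The ratio depends on the marker chosen. The mutant mean was 0.26 times the control mean for Col2a1, and from 0.0971 (Ucma) to 0.697 (Sox9) times it over the 15 cartilage markers. Comp, at 0.656 times, and Sox9 fell about as much as Chst11.

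The other chondroitin 4-O-sulfotransferase genes, Chst12 and Chst13, were lower on average with overlapping groups. Chst12 measured 17.1 ± 1.77 and 15.1 ± 0.539 FPKM, and the little expressed Chst13 measured 2.15 ± 0.568 and 1.58 ± 0.108 FPKM (SD, n = 3). Chst14, which puts 4-sulfate on dermatan and was the most abundant gene of the class, measured 19.4, 18.9 and 22.0 FPKM in control and 20.1, 22.4 and 20.4 FPKM in mutant. Its groups overlapped (log2 change 0.06, interval from -0.11 to 0.23).

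The 6-O-sulfotransferases stood at a lower level and leaned the other way. Chst3, the 6-O enzyme whose loss causes a skeletal dysplasia in humans, measured 2.97, 2.70 and 2.19 FPKM in control and 3.42, 4.09 and 2.67 FPKM in mutant, with overlap in mutant replicate 3. Chst7, which lies on the X chromosome, was higher in all mutant libraries (1.48 ± 0.0746 and 1.98 ± 0.276 FPKM; SD, n = 3), with a limma adjusted p of 0.442. All controls read as female and 2 mutant libraries as male, and the Chst7 change with sex as a covariate is not given here. The summed chondroitin 4-O genes Chst11, Chst12 and Chst13 were set over the summed 6-O genes Chst3 and Chst7, leaving out the dermatan gene Chst14. The ratio was 8.57, 7.22 and 9.80 in control and 5.22, 4.16 and 5.71 in mutant. This ratio was formed after the values were seen, and its groups did not overlap (exact two-sided permutation p = 0.10, the smallest that 3 against 3 can give). Without Chst11 the ratio was 4.71 ± 0.673 in control and 3.14 ± 0.412 in mutant (SD, n = 3). It is a ratio of RNA levels and gives no sulfation of the chains.

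Chst15 (chromosome 7, 132235780 to 132317228, minus strand) adds 6-sulfate to galactosamine that already carries 4-sulfate. It measured 14.1, 13.7 and 13.4 FPKM in control and 16.0, 18.8 and 16.9 FPKM in mutant. All mutant libraries lay above all controls, and the log2 change was 0.30 ± 0.068 (SE; limma adjusted p = 0.193). Its exons overlap the predicted gene Gm10584 on the other strand. Relative to Chst11, whose product can supply its substrate, and in a ratio formed after both values were seen, Chst15 stood at 0.888 ± 0.0909 in control and 1.74 ± 0.269 in mutant (SD, n = 3). Ust, which sulfates the uronic acid, measured 6.12, 5.44 and 6.46 FPKM in control and 6.46, 7.75 and 7.77 FPKM in mutant. Control replicate 3 and mutant replicate 1 touched at 6.46 FPKM, and the log2 change was 0.25 ± 0.093 (SE; limma adjusted p = 0.388), and 0.09 with sex as a covariate. Among the epimerases that turn chondroitin into dermatan, Dse measured 14.1 and 14.2 FPKM on average, and Dsel was slightly lower in all mutant libraries (9.05 ± 0.123 and 8.41 ± 0.148 FPKM; SD, n = 3).

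**Figure D2:**
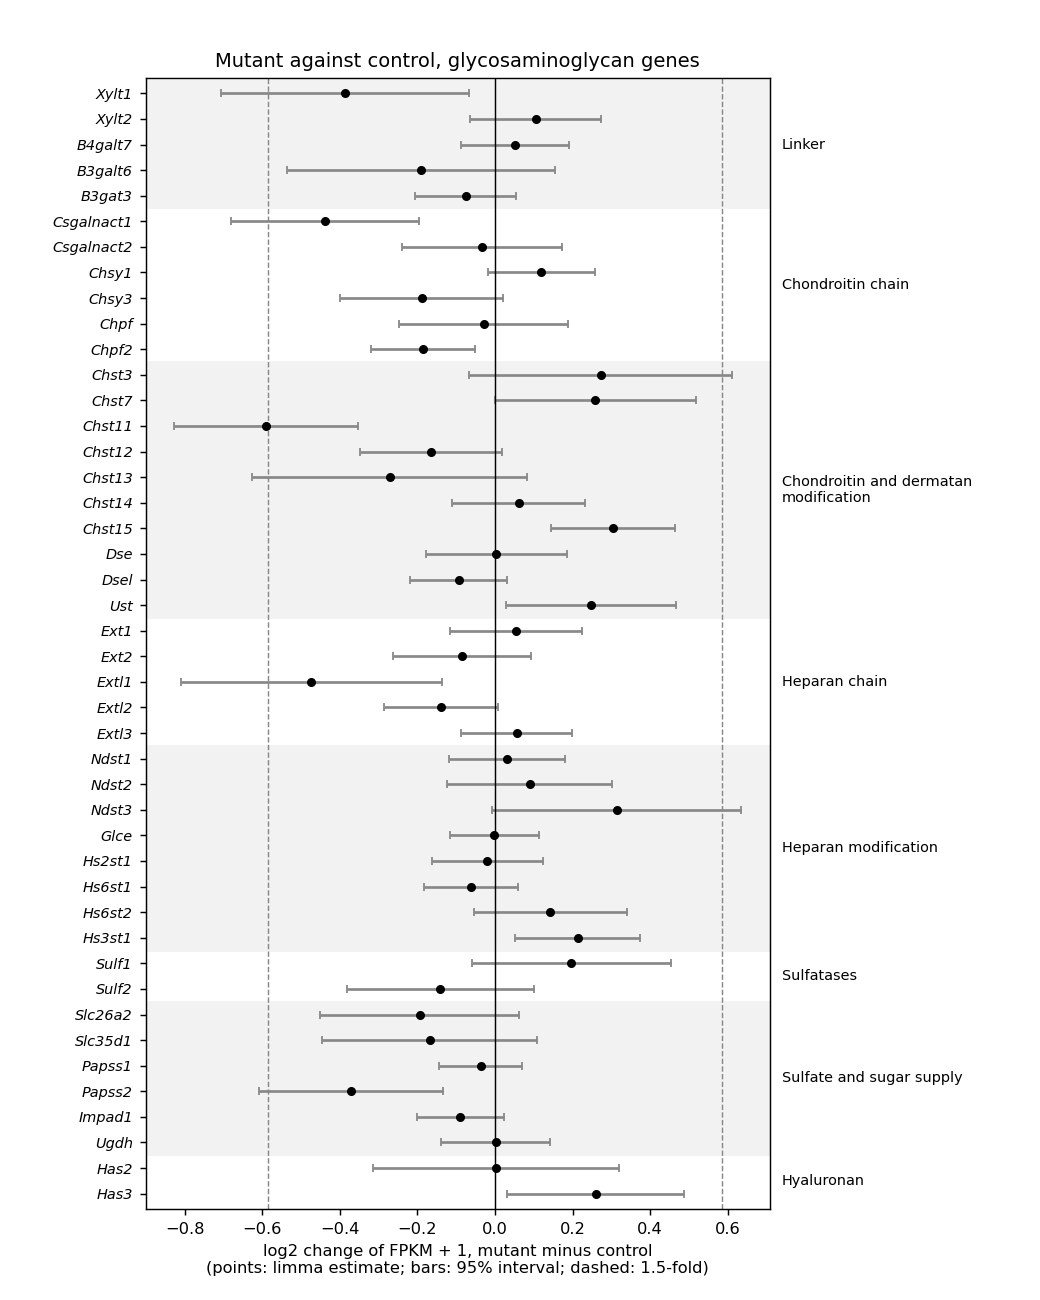
Log2 change of FPKM + 1 (mutant minus control) for the 44 tested genes, with the limma estimate as a point and its 95% interval as a bar; dashed lines mark 1.5-fold. For 36 genes the interval lies between the dashed lines, and Chst11 (-0.59) lies farthest from 0.

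Heparan chains are polymerized by the Ext1 and Ext2 complex, with Extl2 and Extl3 acting at chain initiation. Extl1 (chromosome 4, 134356372 to 134383850, minus strand), an exostosin-like N-acetylglucosaminyltransferase, measured 4.40, 4.83 and 4.66 FPKM in control and 2.78, 2.47 and 4.07 FPKM in mutant. Mutant replicate 3 stood near the controls and the other mutants well below them. The log2 change was -0.47 ± 0.14 (SE; limma adjusted p = 0.303), and with the muscle markers as a covariate it was -0.21. Across the mutants Extl1 had the same order as the cartilage marker sums (704, 632 and 1041 FPKM). Across the controls the order differed, and control replicate 2, with the highest Extl1, had the lowest sum (1928 FPKM, against 2217.5 and 2349 FPKM). The part of cartilage content in the Extl1 value was not tested. Ext2, the most abundant gene of the class, measured 45.9, 40.4 and 46.9 FPKM in control and 42.3, 44.4 and 38.7 FPKM in mutant, with overlapping groups (log2 change -0.08, and -0.03 without mutant replicate 3). Ext1 (20.2 and 21.1 FPKM) and Extl3 (21.7 and 22.6 FPKM) had group means close to each other, with intervals of the log2 change from -0.12 to 0.22 and from -0.09 to 0.20. Extl2 was lower in all mutant libraries by a small step (8.85 ± 0.526 and 7.93 ± 0.135 FPKM; SD, n = 3; limma adjusted p = 0.462).

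Of the 8 tested genes whose enzymes modify heparan chains, 3 were higher in all mutant libraries and 0 were lower in all of them, where 7.85% and 9.16% of all tested genes were. With so few genes this gives no direction for the class, and none was called. Hs3st1, which adds the rare 3-O-sulfate, measured 6.39, 6.83 and 6.05 FPKM in control and 7.98, 7.44 and 7.38 FPKM in mutant. The log2 change was 0.21 ± 0.069 (SE; limma adjusted p = 0.330). Hs6st2, a 6-O-sulfotransferase gene on the X chromosome, measured 5.03 ± 0.201 and 5.67 ± 0.603 FPKM (SD, n = 3). The N-deacetylase and N-sulfotransferase gene Ndst3 measured 1.44 ± 0.272 and 2.03 ± 0.346 FPKM (SD, n = 3). Both had separate groups and neither was called. As for Chst7, the change of Hs6st2 with sex as a covariate is not given here. The abundant enzymes of the class did not separate the groups. Hs6st1, the highest of them, measured 32.5, 32.3 and 33.3 FPKM in control and 31.9, 29.6 and 32.4 FPKM in mutant. Ndst1 averaged 25.2 and 25.8 FPKM, Ndst2 14.6 and 15.6 FPKM, and the 2-O-sulfotransferase gene Hs2st1 16.4 and 16.1 FPKM. The epimerase gene Glce measured 14.07 ± 0.235 and 14.05 ± 0.272 FPKM (SD, n = 3), and the interval of its log2 change, from -0.12 to 0.11, was the third narrowest of the 44. Ndst4 lay under the filter at 0.107 to 0.403 FPKM.

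The secreted endosulfatases Sulf1 and Sulf2 remove 6-O-sulfate from heparan chains outside the cell, and both were well expressed. Sulf1 measured 23.8, 20.7 and 21.7 FPKM in control and 26.5, 28.9 and 21.4 FPKM in mutant. Sulf2 measured 58.0, 52.2 and 58.0 FPKM in control and 56.1, 54.0 and 43.0 FPKM in mutant. Mutant replicate 3 was the lowest mutant for both, and the groups overlapped for both. Their log2 changes, 0.20 ± 0.11 and -0.14 ± 0.10 (SE), had limma adjusted p of 0.552 and 0.665. Leaving out mutant replicate 3 gave 0.32 for Sulf1 and -0.03 for Sulf2, and leaving out mutant replicate 2 gave 0.11 for Sulf1. The exons of Sulf2 overlap those of Ncoa3 on the other strand.

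Among the genes that supply sulfate and sugars, Papss1 and Papss2 both make PAPS, the sulfate donor of every sulfotransferase above, and Papss2 is the form whose loss causes a skeletal dysplasia. Papss2 (chromosome 19, 32595790 to 32667187, plus strand) measured 48.3, 54.2 and 53.4 FPKM in control and 41.6, 34.1 and 44.7 FPKM in mutant. Papss1 measured 53.1, 54.0 and 51.6 FPKM in control and 50.4, 50.7 and 53.4 FPKM in mutant. The groups were separate for Papss2 and overlapped for Papss1. The log2 change was -0.37 ± 0.10 (SE; limma adjusted p = 0.269) for Papss2 and -0.04 ± 0.046 for Papss1. Both genes were at about the same level in control, so that Papss2 made up 47.7%, 50.1% and 50.8% of their summed FPKM there and 45.2%, 40.2% and 45.6% in mutant. These shares did not overlap (exact two-sided permutation p = 0.10, the smallest that 3 against 3 can give). Papss2 was lowest in mutant replicate 2, the library in which the summed muscle markers were highest (1161 FPKM, against 308 to 612 FPKM elsewhere) and the summed cartilage markers lowest (632 FPKM, against 704 and 1041 FPKM in the other mutants). The part of either in the Papss2 value was not tested beyond the muscle covariate. With these markers as a covariate the Papss2 change was -0.14, and it was -0.26 without that library.

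No gene of the supply class was called, Papss1 and Papss2 included. Ugdh makes the activated glucuronic acid that every one of these chains needs, and it was the most abundant of all 46 genes, at 62.3, 65.4 and 66.9 FPKM in control and 63.9, 61.4 and 69.8 FPKM in mutant. The interval of its log2 change ran from -0.14 to 0.14. The exons of Ugdh overlap those of Gm43552 on the same strand. Slc26a2, the sulfate transporter of chondrocytes and the gene of diastrophic dysplasia, measured 2.14 ± 0.239 and 1.74 ± 0.186 FPKM, with overlapping groups (SD, n = 3; limma adjusted p = 0.556). Slc35d1, which carries nucleotide sugars into the endoplasmic reticulum, measured 19.7 ± 2.06 and 17.5 ± 2.62 FPKM. Impad1, the phosphatase that clears spent sulfate donor in the Golgi, was lower in all mutant libraries by a small step (16.6 ± 0.172 and 15.5 ± 0.425 FPKM; SD, n = 3; limma adjusted p = 0.538).

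Hyaluronan is made by 3 synthases. Has2, the main synthase of developing connective tissue, measured 4.99, 4.86 and 4.71 FPKM in control and 5.26, 5.82 and 3.73 FPKM in mutant, so the mutants lay on both sides of the controls. Has3, the synthase known from epithelia, measured 2.01, 2.2 and 1.76 FPKM in control and 2.46, 2.58 and 2.68 FPKM in mutant. The Has3 groups were separate, with a log2 change of 0.26 ± 0.097 (SE; limma adjusted p = 0.388). All 10 skin and oral epithelium markers were higher in mutant too, none called, and their sum was 753 to 1693 FPKM in control and 1918 to 2034 FPKM in mutant. Their part in the Has3 value was not tested. The exons of Has2 overlap the antisense gene Has2os, and those of Has3 overlap Chtf8.

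Has1 (chromosome 17, 17843323 to 17855205, minus strand) was barely expressed and too low for the test. It measured 0.336, 0.303 and 0.398 FPKM in control and 0.0731, 0.0827 and 0.0556 FPKM in mutant. Every control library lay above every mutant library. Multiplied by relative depth, these values were whole multiples of the value in mutant replicate 3 within 0.0124, namely 9, 9 and 10 in control and 2, 2 and 1 in mutant. If each unit is 1 fragment, 28 fragments stood against 5, and the mutant level was 0.210 times the control level, with an exact 95% interval from 0.0633 to 0.550 that covers counting error only. Fitted with no filter, limma gave a log2 change of -0.33 ± 0.051 (SE) on the FPKM + 1 scale, which compresses so low a level, with an unadjusted p of 0.000445 and an adjusted p of 0.119.

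**Figure D3:**
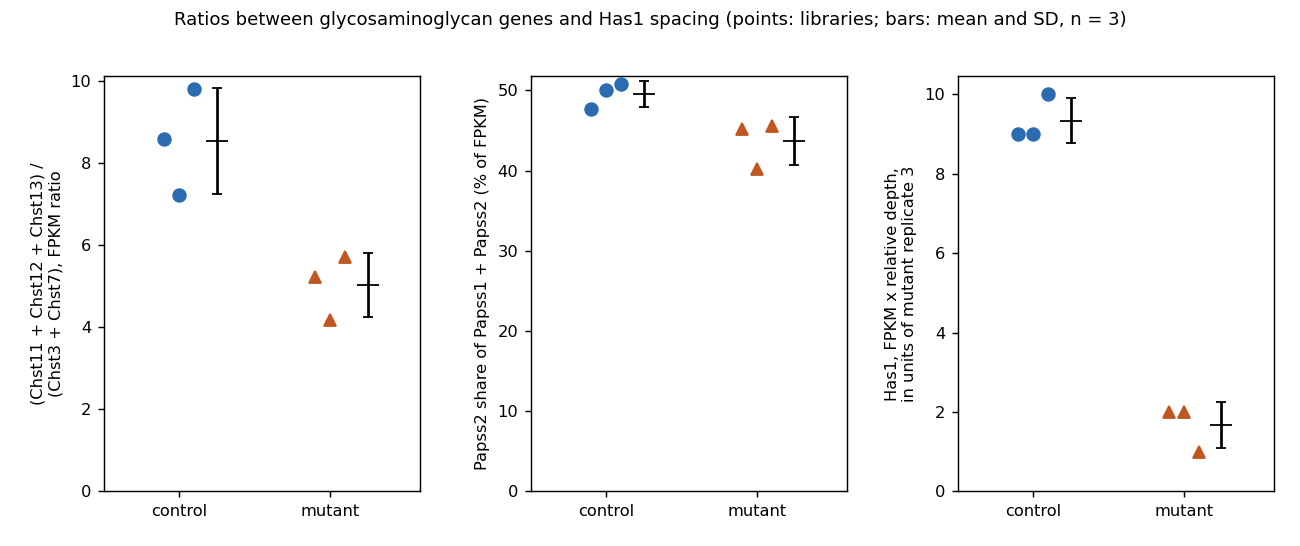
Ratio of 4-O to 6-O chondroitin sulfotransferase FPKM, Papss2 share of the summed Papss1 and Papss2 FPKM, and Has1 FPKM times relative depth in units of mutant replicate 3. Points are libraries and bars are means with SD (n = 3), and in each panel the 3 mutant libraries lie below the 3 controls.

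The remaining genes of the pathway were read from the same fit in 3 lists. Of 24 tested further synthesis genes 0 were called by limma, with 6 lower and 0 higher at an unadjusted p under 0.05, beside 5.96% and 5.35% of all tested genes. Among them the xylose phosphatase gene Pxylp1 had group means of 14 ± 1.12 and 11.2 ± 0.673 FPKM in control and mutant (SD, n = 3; limma adjusted p = 0.247). Of 19 tested breakdown genes limma called 0, with 2 lower and 0 higher at an unadjusted p under 0.05 (the same 5.96% and 5.35% over all genes), namely Naglu (12.8 and 10.4 FPKM) and the heparanase gene Hpse (6.03 and 4.83 FPKM). The medians of the log2 changes were -0.07 and -0.0041 in these lists.

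Core proteins carry the chains. Of 23 tested core protein genes 2 fell at a limma adjusted p under 0.05, where 0.264% of all tested genes were called in either direction. The list was chosen with earlier results of these data known, and its gene Acan is also among the cartilage markers called above. Acan, the aggrecan gene, measured 68.4, 65.7 and 73.1 FPKM in control and 23.1, 24.4 and 35.4 FPKM in mutant, a log2 change of -1.31 ± 0.15 (SE; adjusted p = 0.0266). Epyc, the epiphycan gene, measured 15.7, 16.1 and 16.1 FPKM in control and 3.64, 2.73 and 3.67 FPKM in mutant (log2 change -1.97 ± 0.096 SE; adjusted p = 0.000567). Both stood clear of the controls in every mutant library. Acan lost its call without any one library other than mutant replicate 3 (limma adjusted p from 0.0668 to 0.117), with its change between -1.35 and -1.20, and also with no filter, without the trend and with either covariate (adjusted p from 0.0562 to 0.175). Of the other 21 none was called. At an unadjusted p under 0.05 the list held 4 lower and 3 higher genes, beside 5.96% and 5.35% of all tested genes. The 4 lower ones were Acan, Epyc, Cspg4 (24.1 and 19.6 FPKM) and Sdc4 (58.5 and 52.1 FPKM), all with separate groups. Cspg4 and Sdc4 were also named after their values were seen. The 3 higher ones, named for their direction after their values were seen, were the versican gene Vcan (40.2 ± 3.74 and 53.8 ± 8.78 FPKM; SD, n = 3; limma adjusted p = 0.298), the syndecan gene Sdc2 (41.8 and 47.0 FPKM) and the serglycin gene Srgn (6.95 and 10.7 FPKM), all with separate groups. Summed over all 25 core protein genes of the list, the level was 1689 ± 73.6 FPKM in control and 1671 ± 121 FPKM in mutant (SD, n = 3). Bgn, the biglycan gene, was the highest of them at 584 and 576 FPKM.

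**Figure D4:**
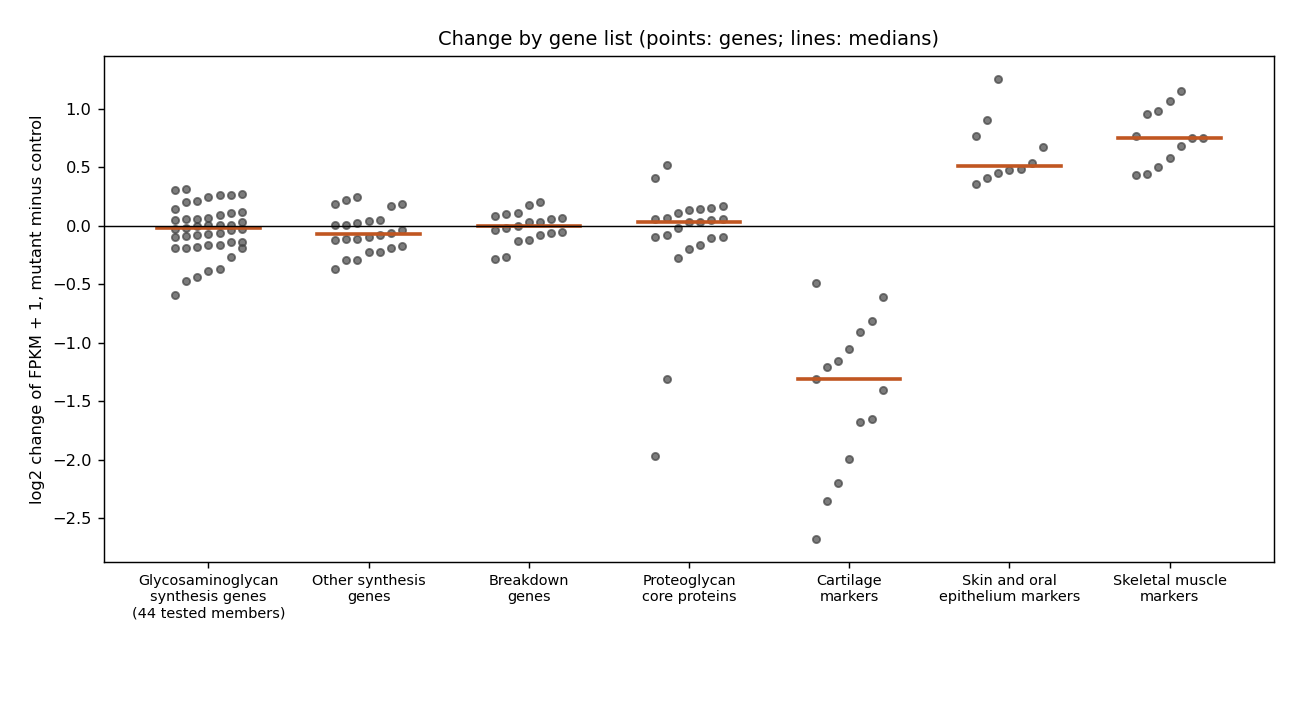
Log2 change of FPKM + 1 (mutant minus control) for the tested genes of each list; points are genes and lines are medians. The glycosaminoglycan genes lie between -0.59 and 0.31 with a median of -0.02, and the cartilage markers between -2.68 and -0.49 with a median of -1.31. Acan is in both the core protein and the cartilage list and is drawn in both.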

How the data were processed

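The authors deposited FPKM values for 3 control and 3 mutant libraries, 1 value per gene symbol, per the file headers. The submitters' processing notes name build mm10 and the tools Cuffdiff 2.2.1, TopHat2 2.1.1, SAMtools 0.1.18 and Bowtie2 2.2.8. The annotation, filters, strand setting and library scaling were not given in the sources used here. Libraries were grouped by genotype label and numbered in accession order. Values were analysed as log2(FPKM + 1), unscaled, where the mean over all 6 libraries reached 1 FPKM, using limma 3.58.1 in R 4.3.3 (lmFit, eBayes with trend, two-sided, 4 residual degrees of freedom). No count test was run. Ratios used exact permutation tests (SciPy 1.17.1). The fit was tested on simulated data. Relative depth came from the commonest ratio between libraries of values under 0.15 FPKM.

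The members and gene lists were chosen with earlier results of these data known. Every called member, the most abundant and smallest-p member of each class, and the 10 members of smallest p are given per library. From each pathway list up to 4 called genes are given per library or, where none was called, the group means of the 2 of smallest p. A gene that this rule selects is not reported here. This made 19 members. Chst3, Papss1, Has1, Col2a1 and Bgn were added after their values were seen. Of 159 list symbols 157 were in the files, 4 under older symbols. Positions are from GENCODE M21 (GRCm38, the same assembly as mm10), and upstream sequences from RefSeq (GRCm38.p6). Exon overlaps not given above were those of B4galt7 with Gm15911, Chsy1 with Gm26827 and Hs6st1 with Gm37335 on the other strand. On the same strand they were those of Chpf2 with Mir671 and Glce with Mir5133.

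Alternatives were other pseudocounts, filters, scalings and eBayes settings, library weights, an adjusted p under 0.1, sex or muscle markers as a covariate, and leaving out each library. Marker lists covered cartilage, osteoblast, skeletal muscle, skin and oral epithelium, leukocyte, endothelial, erythroid, neuron and adipocyte genes.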

Additional observations from a re-analysis of the deposited data

How the results depend on the processing

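No member was called in 18 of the 19 alternative fits, and library weights called 1, Chst11. Of the 19 members given per library, 12 kept the direction of their change in every alternative that tested them, among them Chst11 (-0.69 to -0.54), Csgalnact1 (-0.53 to -0.39), Papss2 (-0.45 to -0.14), Extl1 (-0.64 to -0.21) and Chst15 (0.20 to 0.35). The 7 others, with changes between -0.14 and 0.20, changed sign in some fits, and the cause was not tested. Chpf became 0.0399 with sex as a covariate, 0.0272 without control replicate 1 and 0.0552 without mutant replicate 3 (-0.0984 to 0.0552 when each library was left out). Ugdh became -0.0066 with library weights, -0.0200 with sex, -0.0256 without control replicate 1 and -0.0490 without mutant replicate 3 (-0.0490 to 0.0423 when each library was left out). Has2 became -0.0000 with a pseudocount of 0.1, -0.0196 with quantile scaling, -0.2386 with muscle markers, and -0.0148, -0.0435 and -0.1052 without control replicate 3, mutant replicate 1 and mutant replicate 2 (-0.1052 to 0.1585 when each library was left out). With muscle markers Chst14 became -0.0171, Hs6st1 0.0039 and Sulf1 -0.0375, and with sex Sulf2 became 0.0016. The median change of the members was -0.0691 with muscle markers and moved by less than the spread between libraries otherwise. Genes called over all tested genes numbered 39, against 18 with no filter, 19 without trend, 71 with library weights, 80 at an adjusted p under 0.1, 10 with sex and 4 with muscle markers as a covariate. Leaving out each library gave 17 (without control replicate 2) to 44 (without mutant replicate 3). The 2 called core protein genes became 1 with no filter, without trend, and with sex or muscle markers as a covariate, and ranged from 1 to 2 when each library was left out. The Papss2 share differed by -5.87 percentage points, and by -6.81 to -4.13 when each library was left out. The ratio of 4-O to 6-O genes differed by -3.50, and by -4.16 to -2.87, alternatives added after seeing the data. No paired analysis was possible because the labels give no replicate numbers. Depth limits Has1 and Ndst4 most, and 3 libraries a group limit every test.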
